A study of Mus musculus with 8 samples.

Results

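Tumor-adjacent salivary gland tissue of mice with CRTC1-MAML2–driven tumors was compared with normal salivary gland of littermates that lack the fusion transgene. The comparison used 4 of the 8 arrays of the series, chosen by their titles: Normal control 1 and 2 (N1, N2) and Adjacent Normal 1 and 2 (NAT1, NAT2). The other 4 arrays held tumors (T1 to T4) and were left out of the fit. The question was whether gland lying beside a tumor differed in gene expression from gland of a mouse without the transgene.

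The NAT glands came from mCre-CM(+) mice, which carry both MMTV-Cre and LSL-CM, a CRTC1-MAML2 fusion transgene behind a loxP-flanked stop cassette. The N glands came from mCre-CM(–) littermates, which have MMTV-Cre but not the fusion transgene, so the Cre transgene is shared by both groups. MMTV-Cre is active in duct cells of the salivary gland and only in some of them, so that gland beside a tumor can hold cells with and without the recombined transgene. By Western blot, however, the study found the fusion protein undetectable or barely detectable in the matched adjacent glands. The labels give neither the age of the mice nor the transgenic line, and state which gland no more closely than salivary gland. N1 is labeled as a littermate of the mouse with tumor 1 and N2 as a littermate of the mouse with tumor 2. By its title NAT2 lies beside tumor 2, but its source description names tumor 1. The source description of T2, titled as a tumor, likewise names tissue adjacent to tumor 2. The titles were used here for both, and the study's text, which matches NAT1 with T1 and NAT2 with T2, goes with the titles.

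The CRTC1-MAML2 fusion gene is found in many human mucoepidermoid carcinomas (MECs), tumors that arise mostly in salivary glands. The CRTC1 part of the fusion binds the transcription factor CREB, and the MAML2 part brings a transcription activating domain, so that genes under CREB control are switched on. Tissue next to a tumor is widely used as a normal reference because it shares the animal, but it may also hold early lesions, immune cells, and stroma.

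RNA of each sample was hybridized to 1 one-color Agilent array of a single slide that was scanned once. The level of a probe is given throughout as its log2 intensity minus the 75th percentile of its array, and a difference is NAT minus N of these levels, so 1 unit is a 2-fold difference. Before this scaling the 75th percentile (log2 intensity) was 7.13 on N1, 6.68 on N2, 7.48 on NAT1, and 7.56 on NAT2. The share of probes that the scanner software marked as well above background was 59.9% and 57.7% on the N arrays and 64.2% and 66.1% on the NAT arrays. Both measures were thus higher on each NAT array than on each N array (exact permutation test, two-sided, P = 0.333 for each, the smallest value that 2 arrays against 2 allow). Correlations across the tested probes were between 0.962 and 0.979 among N1, N2, and NAT2, but between 0.917 and 0.943 for NAT1 with each of them. NAT1 therefore stood apart from the other 3 arrays, and results are given below for each NAT array as well as for their mean. In bulk tissue, fewer cells of a type and less RNA per cell cannot be told apart.

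Of the 60915 probes on the array, 38979 (64.0%) exceeded background clearly on 2 or more of the 4 arrays and were tested with limma. With cutoffs of 2-fold and an FDR of 0.05, there were 0 DEGs between NAT and N (0.0% of the tested probes), and the lowest FDR of any probe was 0.872. Before adjustment, 879 probes (2.26%) had a P under 0.05, of which 578 (1.48%) were higher and 301 (0.772%) lower in NAT. That count was 396 without NAT1, 5576 without NAT2, 1418 without N1, 1676 with all 8 arrays in the fit, and 2601 with the replicate block. The median standard error of a log2 difference was 0.42, so that the 95% interval of a typical probe extended 1.05 to either side, or 2.07-fold. This interval holds for 1 probe without adjustment over the probes, so the cutoffs ask for more than it shows. A probe with a difference of -6.39 did not pass them, and 0 DEGs from 2 arrays a group does not show that the glands were alike. The methods' t-test with the 2-fold minimum gave 154 probes at its unadjusted threshold and 0 after Benjamini-Hochberg adjustment, and limma without scaling between arrays gave 19. Without the NAT2 array, when NAT1 alone stood for the adjacent gland, limma called 80 probes, all higher on NAT1. The median of NAT1 minus the N mean over these 80 probes was 7.14, and that of NAT2 minus the N mean was 0.10.

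The files pair 15 probes with genes, most of them housekeeping genes, and these are the genes that can be described by name. Each is printed on the array in 20 copies, of which 15 to 20 were usable per array, and the median SD between copies on 1 array was 0.0733 on the log2 scale. All except Ldhal6b passed the filter on dim probes. None of the 14 was a DEG and none reached an unadjusted P under 0.05 (0.0% and 2.26% of all tested probes), with FDRs from 0.872 to 0.992. The difference was positive for 11 of the 14 (47.1% of all tested probes), with a median of 0.21 (-0.04 for all). The median of NAT1 minus the N mean was 0.56 and that of NAT2 minus the N mean 0.07.

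**Figure D1:**
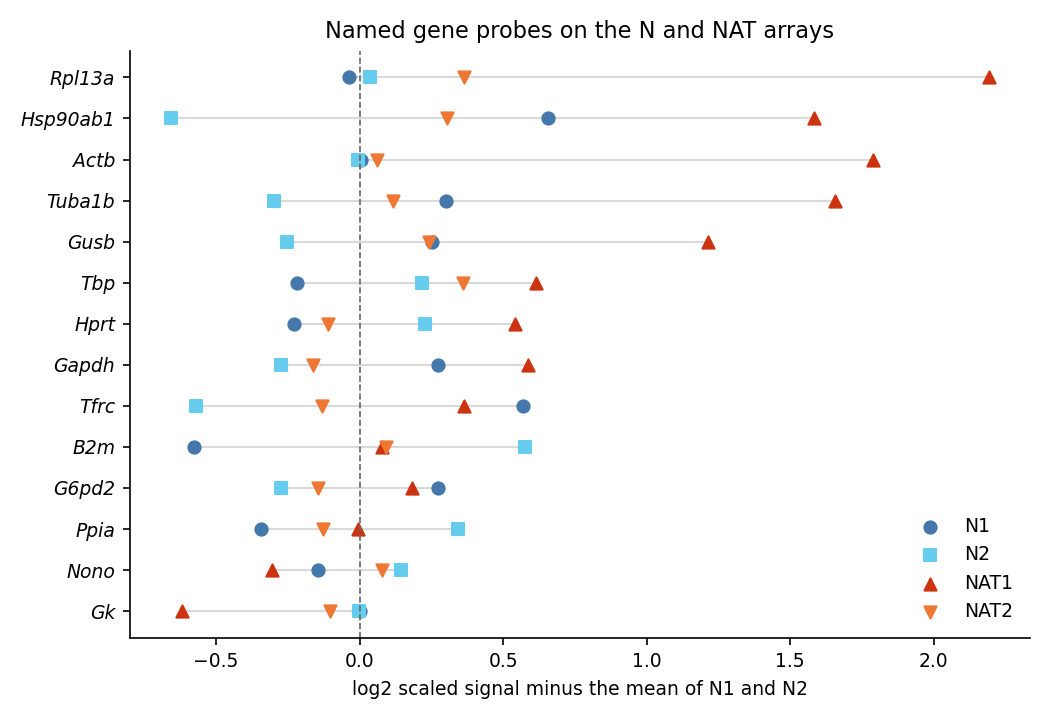
The 14 named gene probes on the N and NAT arrays, each point being 1 array's level (log2 intensity scaled to the array's 75th percentile) minus the mean of N1 and N2. NAT1 is the farthest right for 8 genes, while NAT2 lies between N1 and N2 for 10. Without scaling between arrays, the mean differences of Gk, Nono, and Ppia turn positive.

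The 4 named genes with the largest differences encode proteins of the cytoskeleton, the ribosome, and protein folding, and in each of them NAT1 was far above NAT2. Actb, which encodes the cytoskeletal protein β-actin, had levels of 4.34 on N1, 4.33 on N2, 6.12 on NAT1, and 4.39 on NAT2. The N arrays were almost equal and NAT2 was close above them, whereas NAT1 was far above. The difference was 0.92 ± 0.63 (SE, limma, n = 2 per group, FDR = 0.872), with a 95% interval from -0.64 to 2.49. Tuba1b, which encodes an α-tubulin of the microtubules, had levels of 7.44 on N1, 6.84 on N2, 8.79 on NAT1, and 7.25 on NAT2. NAT2 lay between both N arrays, so the groups overlapped, and the difference was 0.89 ± 0.61 (FDR = 0.872). Rpl13a encodes a protein of the large ribosomal subunit and was the only named gene whose mean differed by 2-fold or more (8.7% of all tested probes did so in either direction), although 4 did so with normexp background correction, 6 without scaling, 5 without NAT2, 3 without N1, and 0 without NAT1. Its levels were 3.38 on N1, 3.45 on N2, 5.61 on NAT1, and 3.78 on NAT2, so that both NAT arrays were above both N arrays but by unequal amounts, 2.19 for NAT1 and 0.36 for NAT2 over the N mean. The difference was 1.28 ± 0.65 (limma, FDR = 0.872), with a 95% interval from -0.35 to 2.91. Hsp90ab1, which encodes a cytosolic chaperone of the HSP90 family, had levels of 3.62 on N1, 2.31 on N2, 4.55 on NAT1, and 3.27 on NAT2. Here the N arrays differed from each other by more than NAT2 differed from either, and the difference was 0.95 ± 0.65 (FDR = 0.872). Ppia, which encodes cyclophilin A, a prolyl isomerase that also assists folding, had no such pattern, with levels from 9.04 to 9.72 on the N arrays and of 9.37 and 9.25 on the NAT arrays. Probes for Actb, Tuba1b, Rpl13a, and Ppia can also bind RNA of closely related gene copies, so these values are not certain to come from the named gene alone.

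Among genes of the nucleus, Tbp was the only one whose groups did not overlap. Tbp encodes the TATA-binding protein that starts transcription complexes, and its levels were -0.50 on N1, -0.06 on N2, 0.33 on NAT1, and 0.08 on NAT2. Both NAT arrays were above both N arrays, and the difference was 0.49 ± 0.38 (limma, FDR = 0.872). NAT2 was above the N mean by 0.36, less than the gap of 0.43 between the N arrays. Nono encodes a nuclear RNA- and DNA-binding protein of paraspeckles, and its levels on the NAT arrays (6.10 and 6.48) spanned those of N1 while N2 was at 6.55. Its copies on 1 array varied with an SD of up to 1.26, the largest of the named probes, so little can be read from the difference of -0.11 ± 0.37, which changed sign without scaling between arrays.

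The enzymes of sugar and glycerol metabolism did not move together. Gapdh, of glycolysis, had levels of 8.83 and 8.29 on the N arrays, 9.15 on NAT1, and 8.40 on NAT2, a difference of 0.21 ± 0.44. G6pd2, a copy of the glucose-6-phosphate dehydrogenase gene whose probe may also bind RNA of the parent gene, had levels of 0.36 and -0.18 on the N arrays, 0.27 on NAT1, and -0.06 on NAT2, a difference of 0.02 ± 0.39. Gk encodes glycerol kinase, and it was the only named gene that was lower on both NAT arrays than on both N arrays. Its levels were -0.23 on each of N1 and N2, -0.85 on NAT1, and -0.33 on NAT2, and the difference of -0.36 ± 0.38 (limma, FDR = 0.872) became 0.255 without scaling between arrays. Ldhal6b, a lactate dehydrogenase gene, was not tested because it was well above background on NAT1 alone, at -4.03 against -5.23 to -4.79 on the other 3 arrays.

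The genes of the cell surface and of salvage and degradation pathways overlapped between the groups. B2m, the light chain of MHC class I molecules, had its lowest and its highest level on the N arrays, 9.11 on N1 and 10.26 on N2, with 9.76 on NAT1 and 9.78 on NAT2. Tfrc, the transferrin receptor that takes up iron, was likewise at its highest (6.34 on N1) and lowest (5.21 on N2) within the N group. The NAT levels of Tfrc were 6.14 and 5.65, and the difference was 0.12 ± 0.51. Gusb, the lysosomal β-glucuronidase, had levels of 1.41 and 0.90 on the N arrays, 2.37 on NAT1, and 1.39 on NAT2, a difference of 0.73 ± 0.48 (limma, FDR = 0.872). NAT2 was just below N1, so the groups overlapped by a margin smaller than the spread between N1 and N2. Hprt, which salvages purines, had levels of 5.50 and 5.96 on the N arrays, 6.27 on NAT1, and 5.62 on NAT2.

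Across the named genes NAT1 was the highest of the 4 arrays for 8 of 14 genes (32.4% of all tested probes), and NAT2 was the highest for 0. NAT2 lay between N1 and N2 for 10 of 14 genes (44.5% of all tested probes). The gap between the NAT arrays was wider than that between the N arrays for 8 of 14 (56.7% of all tested probes). Groups did not overlap for 4 genes (34.2% of all tested probes), 3 of them higher in NAT. These counts were taken with the scaling only. Without scaling between arrays the mean differences of Gk, Nono, and Ppia also became positive.

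Over all tested probes, 3391 (8.7%) differed by at least 2-fold between the group means, 2492 of them (6.39%) higher and 899 (2.31%) lower in NAT. Among the 2492 higher probes, NAT1 alone was 2-fold above the N mean for 1947, NAT2 alone for 72, and both for 473. Among the 899 lower probes, NAT1 alone was 2-fold below the N mean for 648, NAT2 alone for 81, and both for 170. Most of the 2-fold differences were thus differences of a single NAT array. The count was 1479 without NAT1, 9556 without NAT2, and 6676 without N1. Higher probes made up 73.5% of the 3391, a share that was 90.9% with normexp background correction and 99.0% without scaling between arrays, where the median difference of all probes was 0.57. Both NAT arrays were above both N arrays for 5442 probes (14.0%) and below them for 7883 (20.2%), together 34.2%. With 2 arrays against 2, a share of 0.333 is expected without overlap if the group labels carry no information. The count is therefore not read as a separation of the groups.

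When the tested probes were divided by their mean level into dim, middle, and bright groups of equal size, 8.04%, 5.69%, and 5.46% were 2-fold higher and 3.24%, 1.75%, and 1.92% were 2-fold lower, in that order. Some of the dim probes passed the filter through 1 group only, so the shares of the dim group are a description and support nothing. Of the 2492 higher probes, 487 were not well above background on either N array, where only a bound on the N level is known. With that bound, 80 of the 487 were at least 2-fold higher in NAT. Of the 899 lower probes, 25 were not well above background on either NAT array, and 7 of these were at least 2-fold lower with the bound. The flag itself, which the filter used, was set on both NAT arrays and neither N array for 1356 probes and on both N arrays and neither NAT array for 30. The NAT arrays were the brighter arrays before scaling, the part of brightness in these counts was not tested, and they are given as a description of the filter.

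Each NAT gland was then set against the N gland of the same number in the titles, 2 comparisons that share no array. NAT1 and N1 differed by at least 2-fold for 9139 probes (23.4%), 5318 higher (13.6%) and 3821 lower (9.8%) in NAT1. NAT2 and N2 differed for 3422 probes (8.78%), 1868 higher (4.79%) and 1554 lower (3.99%) in NAT2. Only 623 probes (1.6%) were 2-fold higher and 204 (0.523%) 2-fold lower in both pairs, and 481 (1.23%) differed 2-fold in opposite directions. The 827 probes that differed one way in both pairs became 161 with normexp background correction and 4576 without scaling between arrays. Within the groups, 6182 probes (15.9%) differed by 2-fold between N1 and N2 and 8432 (21.6%) between NAT1 and NAT2. NAT2 and N1, the pair that NAT2's source description alone would give, differed for 2884 probes (7.4%). More probes thus differed between the 2 control glands than between NAT2 and either of them.

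**Figure D2:**
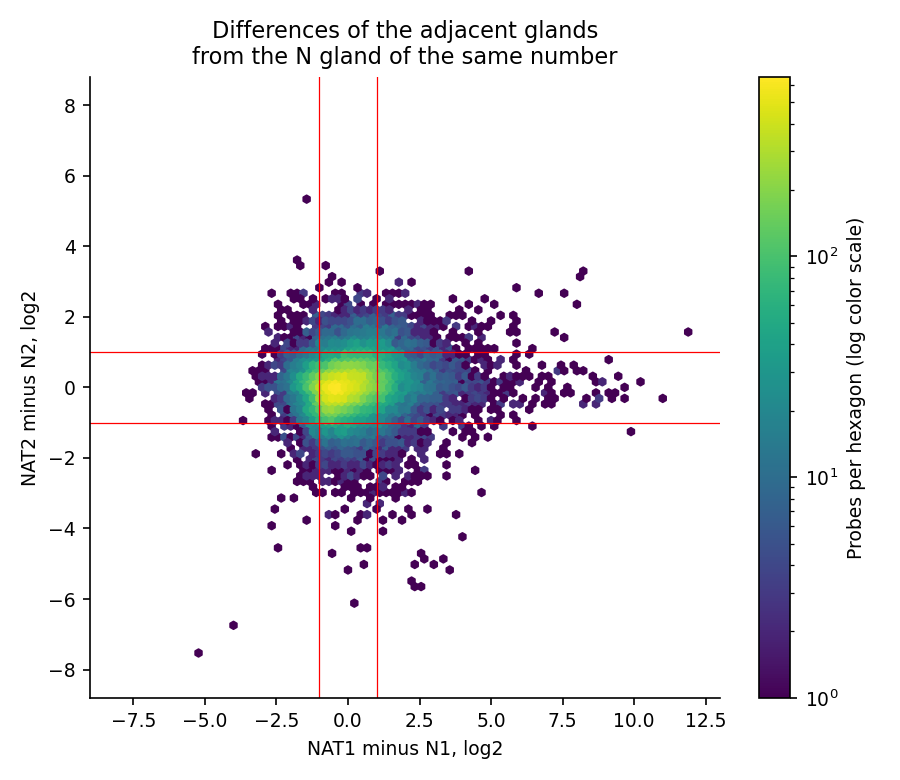
Difference of each adjacent gland from the N gland of the same number in the titles for the 38979 tested probes, with NAT1 minus N1 on the x axis and NAT2 minus N2 on the y axis (both log2). Color gives the number of probes per hexagon on a log scale, and red lines mark 2-fold. The cloud reaches farthest to the right along the x axis, while 623 probes lie in the upper right and 204 in the lower left corner beyond the lines.

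The largest differences among probes that were well above background on all 4 arrays and did not overlap belonged to probes without a gene name. The highest, ASMM10P036135, had levels of -1.89 on N1, -0.98 on N2, 8.40 on NAT1, and -0.83 on NAT2. It was high on NAT1 alone, and on the tumor arrays it was between -1.63 and -1.12, so its difference of 5.21 ± 2.82 came from 1 array. The other, ASMM10P026129, had levels of -3.11 on N1, -1.61 on N2, 4.51 on NAT1, and 1.05 on NAT2, and reached from 2.80 to 7.08 on the tumor arrays. Here both NAT arrays were above both N arrays and on the side of the tumors, with a difference of 5.14 ± 1.19 (limma, FDR = 0.872).

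The 2 lowest probes had both NAT arrays below both N arrays, as the rule that chose them required. The probe ASMM10P040651 had levels of 3.81 on N1, 5.86 on N2, -1.37 on NAT1, and -1.74 on NAT2. Its difference of -6.39 ± 0.72 had a 95% interval from -8.19 to -4.60 and the lowest P of all probes lower in NAT, yet an FDR of 0.872 over the tested probes. The probe ASMM10P029611 had levels of 3.09 on N1, 5.09 on N2, -0.81 on NAT1, and -1.62 on NAT2, and its difference was -5.30 ± 0.74 (limma, FDR = 0.872). On the tumor arrays these probes ranged from -2.28 to 4.39 and from -0.82 to 1.56. Both were high in the glands without the transgene and low in both adjacent glands. The lowest P among probes higher in NAT belonged to an unnamed probe that passed the filter through the NAT arrays alone. Its test is therefore not read here, and with the N levels at their bound it was at least 2.36-fold higher in NAT.

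Counting probes that stood apart on a single array showed the same asymmetry between the NAT arrays. On NAT1, 3052 probes were at least 2-fold above all 3 other arrays, against 69 on NAT2, 116 on N1, and 626 on N2. At 8-fold the counts were 328 on NAT1, 1 on NAT2, 0 on N1, and 18 on N2, and at 32-fold 84 on NAT1 and 1 on N2. Below all 3 others by 2-fold were 1693 probes on NAT1, 101 on NAT2, 749 on N1, and 960 on N2, but at 8-fold 3 on NAT1 and 7 on N1. The probes of NAT1 thus differed in both directions at 2-fold and almost only upward at 8-fold. At 8-fold N2 had 18 above and 0 below, and N1 had 0 above and 7 below. Dim probes have little room to fall before they reach background, and the part of this limit was not tested.

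**Figure D3:**
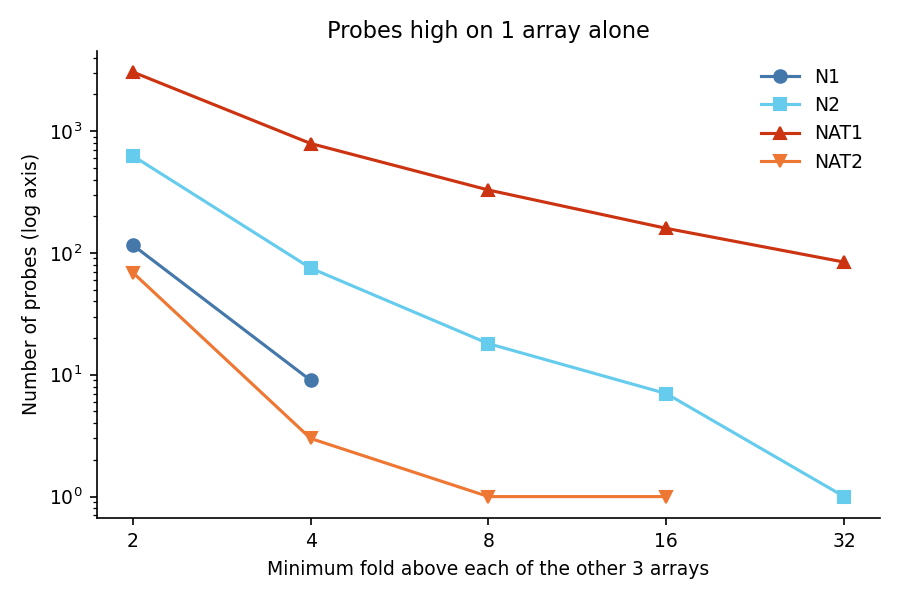
Number of tested probes that were higher on 1 array than on each of the other 3 of N1, N2, NAT1, and NAT2 (log y axis) by the minimum fold on the x axis (log axis). Counts of 0 are not drawn. NAT1 falls from 3052 probes at 2-fold to 84 at 32-fold and lies above the other arrays at every fold.

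A small share of these 328 probes sat in a narrow strip of the NAT1 array. In this strip, a few columns wide, at the lower edge of the array, and chosen after the data were seen, 11 of the 103 tested probes were 8-fold high on NAT1 (10.7%), against 317 elsewhere (0.815%). The local background also varied more there, with a median pixel SD of 13.3 intensity units, compared with 8.27 elsewhere on NAT1 and from 7.18 to 7.87 in the same region of the other 3 arrays. Without this strip the comparison of NAT with N still gave 0 DEGs, 881 probes with an unadjusted P under 0.05, and 2475 probes 2-fold higher. The 317 probes outside it lay across the whole array.

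**Figure D4:**
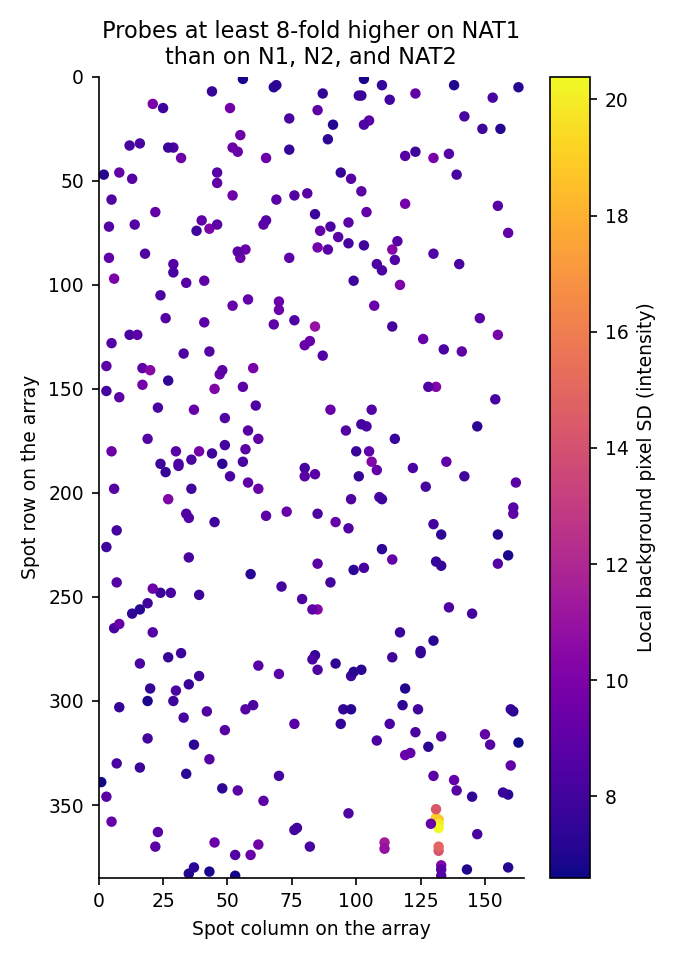
Positions of the 328 probes that were at least 8-fold higher on NAT1 than on N1, N2, and NAT2, by spot column and spot row, colored by the pixel SD of the local background (intensity units). The brightest points form a line in the strip at the lower edge, where 11 of the probes lie, and the other 317 are spread over the array.

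NAT1 was next set against NAT2 and the outcome against the tumor arrays, which are no part of that difference. Outside the strip 422 probes were at least 8-fold higher on NAT1 than on NAT2, and 67.1% of them were also at least 8-fold higher in 1 or more tumors than in the N mean, compared with 10.8% of all probes. The share by tumor was 25.1% in T1, 64.2% in T2, 29.4% in T3, and 31.3% in T4, whereas it was between 5.51% and 7.47% of all probes. At least 8-fold lower were 1.9% in T1, 0.237% in T2, 0.711% in T3, and 0.474% in T4, compared with 6.5% to 8.08% of all probes. NAT2 was close to the N arrays, so probes low on NAT2 tend to be low in N, and all probes are not a matched reference. Some N levels were at background (ASMM10P036113, -5.91 on N1 and -5.62 on N2), and no bound was used here. The median of tumor minus N over the 422 probes was 0.74 in T1, 4.07 in T2, 1.24 in T3, and 1.38 in T4. The median was thus largest on T2 and smallest on T1, the tumor whose number NAT1 bears. Where T2 lay differed between named genes. Rpl13a was at 7.52 on T2, 8.09 to 8.20 on the other tumors, and 5.61 on NAT1. Ppia was at 9.35 on T2, within the N levels of 9.04 to 9.72, and at 9.69 to 9.98 on the other tumors. The label of T2 was not tested. Within the strip the share was 9.09% in each tumor, or 1 probe of 11. In the opposite direction, 57 probes were 8-fold higher on NAT2 than on NAT1, and 38.6% of them were 8-fold higher in T1, 28.1% in T2, 22.8% in T3, and 1.75% in T4 than in the N mean. Shares of 8-fold lower probes were 28.1% in T1, 29.8% in T2, 24.6% in T3, and 19.3% in T4, compared with 6.5% to 8.08% of all probes. Cell type markers could not be read because their probes have no gene names here.

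Some of the highest probes of NAT1 had no counterpart in any other array of the series. Counted over 60791 probes, the untested ones included, 86 were at least 16-fold above all 7 other arrays on NAT1, 72 of them outside the strip, compared with 34 on T2 and between 3 and 12 on each of the other 6. Among them were long intergenic noncoding RNA probes, examples of which were chosen after their values were seen. The probe mouselincRNA0013-_P1 had levels of -1.74 on N1, -1.59 on N2, 7.10 on NAT1, and -1.49 on NAT2. The probe mouselincRNA1453+_P1 had levels of -2.82 on N1, -3.13 on N2, 6.21 on NAT1, and -2.31 on NAT2. Neither was above -1.66 on any tumor array.

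Long intergenic noncoding RNAs (lincRNAs) are transcribed between protein-coding genes and do not encode proteins, and many are present in few copies per cell. Of 1836 probes that the array names as lincRNA, 854 (46.5%) were tested, compared with 64.0% of all probes. None was a DEG, and 9 (1.05%, compared with 2.26% of all tested probes) had an unadjusted P under 0.05 in limma. There were 17 (1.99%) 2-fold higher and 38 (4.45%) 2-fold lower in NAT, while over all tested probes higher ones were the more frequent (6.39% and 2.31%). Both NAT arrays were below both N arrays for 265 lincRNA probes (31.0%, compared with 20.2% of all) and above them for 39 (4.57%, compared with 14.0%). The lincRNA probes thus leaned to the lower side.

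The median difference of the lincRNA probes was -0.29, while that of all tested probes was -0.04. It was -0.28 for the 497 tested probes named as human lincRNA, -0.32 for the 311 named as mouse lincRNA, and -0.39 for the 46 named as lincRNA exon, and the kinds were not tested against each other. By array, the median level of the lincRNA probes was -1.52 on N1, -1.58 on N2, -1.97 on NAT1, and -1.61 on NAT2. NAT1 alone was clearly low, and accordingly the median was -0.54 for NAT1 minus N1 and -0.05 for NAT2 minus N2 (-0.10 and 0.03 for all tested probes). Without NAT1 the median difference of the lincRNA probes was -0.07. The lean was present in the dim, middle, and bright groups, with lincRNA medians of -0.16, -0.33, and -0.39 in that order and medians of all probes of 0.02, -0.09, and -0.05. Without scaling between arrays the lincRNA median turned to 0.32, below the 0.57 of all probes.

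**Figure D5:**
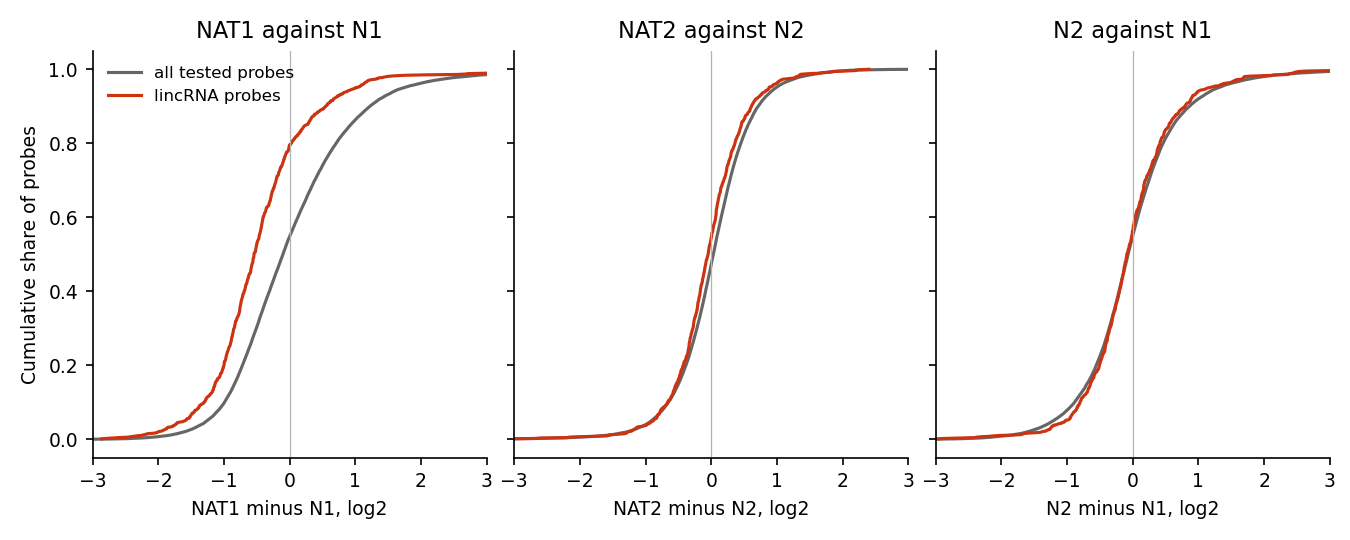
Cumulative share of lincRNA probes and of all tested probes (y axis) by log2 difference (x axis) for NAT1 minus N1, NAT2 minus N2, and N2 minus N1. The lincRNA curve lies to the left of that of all probes in the NAT1 panel (medians -0.54 and -0.10) and close to it in the other panels.

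The array also holds control spots at the 3′ and 5′ ends of the mouse Gapdh and Pgk1 transcripts, which encode enzymes of glycolysis. When labeling starts at the 3′ end, 5′ signal falls behind in RNA that is less intact. The 3′ level of Gapdh was 7.75 on N1, 7.07 on N2, 8.23 on NAT1, and 7.31 on NAT2, and the 5′ level was 4.67, 3.49, 5.85, and 4.43, in that order. The 5′ minus 3′ value was -3.07 on N1, -3.57 on N2, -2.38 on NAT1, and -2.89 on NAT2. The 3′ level of Pgk1 was 5.30 on N1, 5.99 on N2, 5.64 on NAT1, and 5.74 on NAT2. Its 5′ level was dim, at -2.40, -2.49, -1.49, and -1.82 in that order. The lowest level of any probe well above background was -3.58 on N1 and -3.30 on N2. The 5′ minus 3′ value of Pgk1 was -7.70 on N1, -8.48 on N2, -7.13 on NAT1, and -7.56 on NAT2. Both NAT arrays were above both N arrays for each gene, by 0.69 for Gapdh and 0.74 for Pgk1 in the mean (exact permutation test, two-sided, P = 0.333 each, the smallest value that 2 against 2 allow). On the tumor arrays the 5′ minus 3′ value was higher still, from -0.80 to -0.34 for Gapdh and from -5.78 to -4.46 for Pgk1. The part of RNA integrity in the differences between NAT and N was not tested.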

How the data were processed

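The authors deposited each array's spot intensity from Agilent Feature Extraction 11.0.1.1, background-corrected but not normalized between arrays, and a table of log2 values whose normalization is not given in the sources used here. Samples were grouped by title. Control and outlier spots and 15 negative-control probes were left out, spots were averaged per probe, and the log2 values, scaled by subtracting the 75th percentile of their array, were fitted by lmFit and eBayes of limma 3.58.1 (R 4.3.3) to the N and NAT arrays only, with Benjamini-Hochberg adjustment over the 38979 tested probes. The cutoff (2-fold, FDR of 0.05) is the study's. Its methods give an unpaired t-test for comparing groups in general without tying it to the arrays, so that test was run as an alternative (the methods' t-test). Probes were tested if well above background on 2 or more of the 4 arrays, with an unflagged value on each. For bounds on fold changes only, a probe dim on both arrays of a group was set to the higher of its own level and the lowest level of any probe well above background there. Other steps used Python 3.11.15, and the fits were also tested on simulated data.

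The named genes are all 15 probes with a gene symbol, matched by RefSeq accession (15 matched). Other probes have no gene name here, so no cell type marker, pathway list, or value per gene was analysed, and no probe sequence is printed. Unnamed probes were taken as the 2 highest and 2 lowest differences without overlap and the lowest P in each direction. The comparison and these lists were chosen with earlier results of these data known. By title the labels pair N1 with NAT1 and N2 with NAT2 as litters, though NAT2's source description would place it with N1, and the deviations of N1 and NAT1 from their group means correlated at 0.212 across probes. The precision is limited by the number of arrays. P values measure the spread between these samples, each taken to be 1 mouse. The alternatives were normexp background correction (offset 50, median spot signal), quantile, median, or no scaling, the deposited table, other filters, all 8 arrays, a replicate block, an intensity trend with robust shrinkage, the methods' t-test, and leaving out each array or, added after seeing the data, the strip on NAT1, and slide row as a block with all 8 arrays.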

Additional observations from a re-analysis of the deposited data

How the results depend on the processing

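The count of 0 DEGs was kept with normexp, quantile, and median scaling, both other filters, the deposited table (38162 probes tested, none of the named genes), all 8 arrays, the intensity trend, an FDR of 0.01, no fold minimum, and without the strip, and the replicate block also gave 0, with 2601 probes at an unadjusted P under 0.05 and a lowest FDR of 0.738. It was 19 without scaling (17 higher, 2 lower), 154 with the methods' t-test before adjustment, and 0 to 80 when single arrays were left out, a fit that takes the spread of the lone array from the opposite group. The replicate block changed no call. Probes with a 2-fold difference, 3391 as reported, numbered 1094 with normexp, 9488 without scaling, 5896 without a filter, 2114 with detection on all 4 arrays, and 1479 to 9556 with 1 array left out. Probes without overlap, 13325 as reported, numbered 25140 without a filter and 21640 to 30828 with 1 array left out, where a lone array faces 2. Probes that differed one way in both pairs, 827 as reported, numbered 161 with normexp, 4576 without scaling, 1391 without a filter, and 413 with detection on all 4 arrays. Between NAT2 and NAT1 the count was 3670 with normexp and 13995 without a filter, and between N2 and N1 it was 1935 with normexp, 9561 without scaling, 10160 without a filter, and 3874 with detection on all 4 arrays. The share of higher probes among those that differed 2-fold was 73.5% as reported, 90.9% with normexp, 99.0% without scaling, and 59.8% without a filter. The median difference of all tested probes was -0.04 as reported, -0.19 with normexp, 0.57 without scaling, -0.14 without a filter, and -0.10 to -0.0038 with 1 array left out, and that of the lincRNA probes was 0.32 without scaling and -0.51 to -0.07 with 1 array left out.

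Among the named genes, Ppia became 0.12 with normexp and 0.55 without scaling, Nono 0.0773 and 0.50, Gk 0.255 without scaling, and G6pd2 -0.0022 with normexp. With 1 array left out, the difference ranged from -0.41 to 0.28 for Ppia, -0.31 to 0.079 for Nono, -0.49 to 0.66 for B2m, -0.16 to 0.59 for Gapdh, -0.25 to 0.29 for G6pd2, -0.11 to 0.54 for Hprt, and -0.45 to 0.69 for Tfrc. The cause of these changes was not tested. NAT2 alone among the 4 arrays lies in row 2 of the slide, so a fit of these arrays with the row as a block is the fit without NAT2 (80 DEGs). With all 8 arrays and the row as a block, added after seeing the data, there were 0 DEGs, 3855 probes 2-fold higher and 2300 lower, 3364 probes at an unadjusted P under 0.05, 4 named genes 2-fold higher, and values of 0.0199 for Ppia and 0.057 for Nono. A value per gene was not computed for lack of gene names.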
